A study of Mus musculus with 26 samples.

Results

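Interferon response genes were followed here in the initial segment (IS) of the epididymis, the caput epididymidis and the testis of adult mice. The 34 genes were a set of classical interferon-stimulated genes listed by symbol, chosen with earlier results of these data known. All 34 were found among the 23337 genes of the deposited tables of counts.

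The mice were males of 2 genotypes. ArKI mice carry a germline knock-in. It is present in every cell type, so that effects in epithelium, muscle, vessels and immune cells are measured together. All mice, wild-type (WT) mice included, were 3 months old and of the strain given as C57Bl/6N; 129 hybrid, which per the methods goes back to a hybrid embryonic stem cell line. The IS and the caput were each sampled in 5 ArKI and 5 WT samples, and the testis in 3 ArKI and 3 WT samples. Whole tissue was used throughout, and fewer cells of a type and less RNA per cell cannot be told apart.

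Interferons are secreted proteins, and those of type I and type III are released when cells detect foreign nucleic acid. Type I and type III interferons signal through receptor-bound JAK kinases to a complex that holds STAT2 and IRF9, which binds the interferon-stimulated response element, and interferon gamma signals to STAT dimers, which bind the gamma-activated site. The genes induced include sensors of viral RNA, enzymes that degrade or modify it, GTPases and the machinery that loads peptides onto class I molecules. In the epididymis, macrophages lie within and below the epithelium, and in the testis they lie between the tubules.

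Counts were expressed as CPM, the count of a gene relative to the scaled total of its library, with the scaling done within each table, and a gene rose or fell where edgeR's quasi-likelihood test gave an adjusted p below 0.05 over all genes tested in that tissue. Standard errors (SE) are on the log2 scale. Total counts lay between 5829074 and 9770625 in the IS samples, between 4125768 and 11913469 in the caput samples and between 14077013 and 21376604 in the testis samples. A value of 3 counts came to between 0.140 CPM in the deepest testis sample and 0.727 CPM in the shallowest caput sample. The knock-in changes bases, not the presence of the transcript, so counts cannot check the genotype. Summed markers of the IS epithelium (Ros1, Etv4, Etv5, Cst8) lay between 3382 and 5016 CPM in the IS and between 319.6 and 686.4 CPM in the caput. Germ cell markers reached 9140 CPM or more in every testis sample. The summed caput markers overlapped between the segments, at 55807 to 83731 CPM in the IS and 53817 to 92757 CPM in the caput. The sum held Gpx5 (44254 CPM in IS WT and 53669 CPM in caput WT) and Adam7 (15587 and 14450 CPM). Lcn5 by itself had means of 83.4 and 61.0 CPM in IS WT and ArKI, against 15468 and 12697 CPM in the caput.

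Caput ArKI replicate 2 stood apart from the other samples. It had the lowest total count of the series, and 28 of the 34 members were highest in it among the caput ArKI samples. Its summed macrophage markers were 269.4 CPM against 169.4 CPM in the lowest caput ArKI sample and 192.7 CPM in the highest caput WT sample, and its summed smooth muscle markers were 1114 CPM. Without it, 6 of the 32 members tested in the caput changed the sign of their estimate, none of them called with all samples. Samples of the WT groups also stood above their own group, to a lesser degree. Caput WT replicate 3 was highest in its group for 23 of the 34 members, with a mean of log2(CPM + 0.5) of 3.32 against 2.96 to 3.03 in the other caput WT samples, and IS WT replicate 3 was highest for 18, at 3.36 against 2.99 to 3.15. Caput ArKI replicate 2 was at 3.75 against 2.96 to 3.31. The members' median log2 fold change of ArKI over WT was 0.19 in the caput without caput WT replicate 3, against 0.15 with all samples, and -0.16 in the IS with or without IS WT replicate 3.

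In WT mice most members had far higher levels in both epididymal segments than in the testis. In 27 of 34 members every testis WT sample was below every epididymal WT sample, and in 1 member, Dhx58, every testis sample was above. The tissues were sequenced in different batches, the IS and caput in batch 2 and the testis in batch 1, so that tissue and batch cannot be told apart and no test was made across them. Irf7, the factor that amplifies interferon production, was at 21.6 ± 2.57 CPM in IS and 38.7 ± 4.999 CPM in caput (SD, n = 5), against 0.910 ± 0.221 CPM in testis (SD, n = 3). Igtp, an immunity-related GTPase, was at 26.9 ± 3.55, 16.0 ± 2.61 and 0.816 ± 0.225 CPM in the same order. Dhx58, which encodes the RNA-binding regulator LGP2, went the other way, with 5.47 ± 1.20 CPM in IS, 3.44 ± 0.895 CPM in caput and 61.1 ± 2.51 CPM in testis. Mx1, Mx2, Oasl1, Cmpk2, Oas3 and Irf8 overlapped between the testis and the epididymis. Oas3, an oligoadenylate synthetase, was near the level of 3 counts in all tissues, with at most 0.859 CPM in any WT sample.

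**Figure D1:**
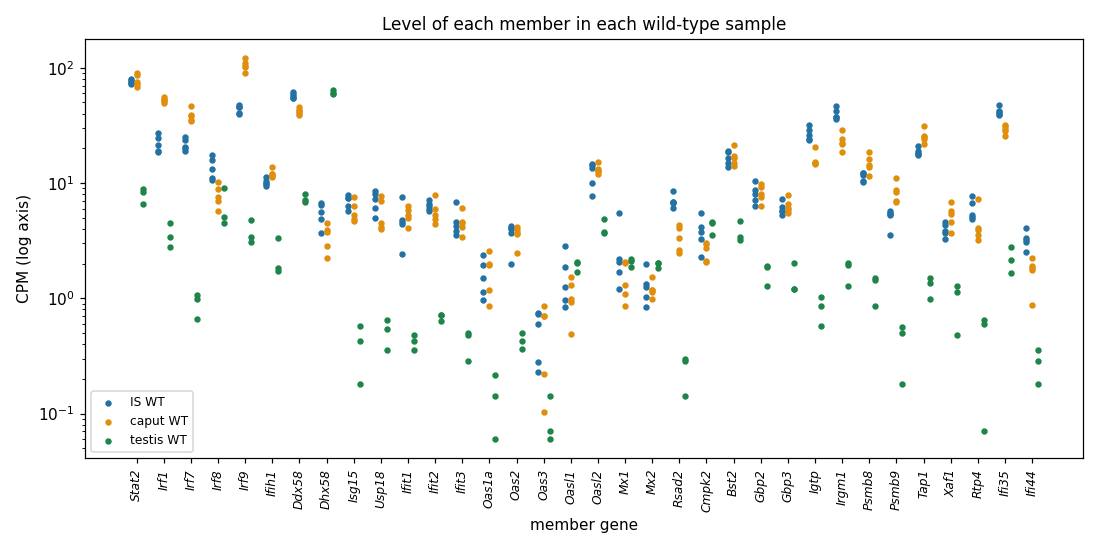
Level of each of the 34 members in each WT sample, in CPM on a log axis, with 5 IS, 5 caput and 3 testis samples side by side. The testis samples lie below all epididymal samples for 27 members and above them for Dhx58.

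Levels per kilobase of exon (RPKM) gave an approximate ranking of the members within a tissue. The lengths were those of all GENCODE exons of a gene joined, whereas the reads were counted over RefSeq genes. For Irf7 and Psmb8 the joined length exceeded the whole RefSeq gene, which lowers their RPKM. Ranks with RefSeq lengths were not obtained. In WT IS the highest were Ifi35 at 24.3, Bst2 (tetherin, which holds budding virus at the membrane) at 18.3, Igtp at 13.3 and Stat2 at 12.8 RPKM. In WT caput they were Irf9 at 19.6, Bst2 at 18.5, Ifi35 at 16.9, and Irf1 and Stat2, both at 13.2 RPKM. In WT testis Dhx58 led at 18.7 RPKM, followed by Bst2 at 4.18 and Stat2 at 1.33 RPKM. Irf1, Irf7 and Irf9 ranked higher in caput than in IS, and Dhx58 ranked first in testis only.

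The difference between the segments of WT mice was tested directly. Of 33 members tested, 9 were higher in WT IS and 7 were higher in WT caput, while 35.8% and 35.4% of all genes tested were called in these directions. Genes for transcription factors and peptide processing were mostly higher in caput. Irf9, the DNA-binding subunit of the STAT complex, was at 44.0 ± 3.45 CPM in IS and 105.6 ± 11.6 CPM in caput (log2 difference of -1.25 ± 0.07 SE, adjusted p = 5e-11). Irf1, the factor that acts downstream of interferon gamma, was at 22.2 ± 3.75 and 52.4 ± 2.68 CPM (log2 difference -1.24 ± 0.09). The groups of both genes did not overlap. Irf7, Tap1 (a subunit of the peptide transporter) and the immunoproteasome subunits Psmb8 and Psmb9 were higher in caput too, as was Ifih1, with log2 differences between -0.83 and -0.24, and the call of Ifih1 was lost in 8 of 17 alternatives. That of Cmpk2 was lost in 5 of 17. Higher in IS were Rsad2 at 6.997 ± 0.937 against 3.36 ± 0.831 CPM (log2 difference 1.07 ± 0.17, adjusted p = 1.5e-05), Ifi44 (0.93), Irf8 (0.80), Irgm1 (0.80), Igtp (0.76), Dhx58 (0.66), Cmpk2 (0.55), Ifi35 (0.54) and Ddx58 (0.46), each given as a log2 difference. None of the ISG15, IFIT or OAS genes was called between the segments, and their estimates lay between -0.15 and 0.59.

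Promoter sequence is shown for the 4 members whose change in the IS kept an adjusted p below 0.05 in every alternative fit that could test them. Each window covers 250 bases before and 50 bases after the RefSeq start site (GRCm38.p6, the build of the counts), reads along the gene's strand, and has matches to the core of the interferon-stimulated response element (GAAANNGAA, either strand, overlapping matches joined) in capitals.
Rsad2, chr12:26456403-26456702, minus strand.
Rsad2: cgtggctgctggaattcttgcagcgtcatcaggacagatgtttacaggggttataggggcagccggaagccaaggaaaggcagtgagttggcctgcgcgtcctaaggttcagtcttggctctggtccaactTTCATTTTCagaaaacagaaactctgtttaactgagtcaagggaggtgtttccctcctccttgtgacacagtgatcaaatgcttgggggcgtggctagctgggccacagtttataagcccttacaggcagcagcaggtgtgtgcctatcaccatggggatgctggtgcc
Ifi44, chr3:151749861-151750160, minus strand.
Ifi44: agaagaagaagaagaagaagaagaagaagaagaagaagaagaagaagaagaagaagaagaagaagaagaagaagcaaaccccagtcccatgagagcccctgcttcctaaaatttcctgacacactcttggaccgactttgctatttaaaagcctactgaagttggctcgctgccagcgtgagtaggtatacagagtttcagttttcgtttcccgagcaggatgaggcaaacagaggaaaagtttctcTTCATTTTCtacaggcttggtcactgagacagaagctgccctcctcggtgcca
Stat2, chr10:128270248-128270547, plus strand.
Stat2: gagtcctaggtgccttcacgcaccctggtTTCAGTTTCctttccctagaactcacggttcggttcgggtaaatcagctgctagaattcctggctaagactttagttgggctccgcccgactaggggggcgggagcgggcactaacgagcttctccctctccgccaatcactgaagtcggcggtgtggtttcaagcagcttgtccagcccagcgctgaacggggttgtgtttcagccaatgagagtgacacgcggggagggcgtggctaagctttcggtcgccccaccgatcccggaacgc
Irgm1, chr11:48871371-48871670, minus strand.
Irgm1: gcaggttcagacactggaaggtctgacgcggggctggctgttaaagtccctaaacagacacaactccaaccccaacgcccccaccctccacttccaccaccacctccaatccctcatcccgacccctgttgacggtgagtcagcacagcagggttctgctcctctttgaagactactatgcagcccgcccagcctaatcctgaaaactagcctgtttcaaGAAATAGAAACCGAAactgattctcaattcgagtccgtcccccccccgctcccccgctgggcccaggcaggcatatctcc
The match in Rsad2 began 119 bases before the start site and that in Stat2 221 bases before it. In Irgm1 there were overlapping matches 30 and 24 bases before the start site, and the match in Ifi44 began 3 bases before it. Windows were found for 28 of the 34 members, and 15 of these (53.6%) held the core in at least 1 window, against 9.76% of the 27025 genes with a window. The gamma-activated site (TTCNNNGAA, either strand) was matched in 8 of the 28 (28.6%), against 9.55% of genes. A match is a string of letters and not a bound site. The members called in the IS held the core in 6 of 7 genes with a window, those called in caput in 2 of 5 and those called in testis in 0 of 2. Members tested and not called held it in 7 of 18, 12 of 21 and 8 of 19, in the same order. These counts were not tested.

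In the IS, more members fell in ArKI mice than rose. Of 30 members tested, 6 fell, among them Rsad2, Ifi44 and Stat2, 2 rose, Ifih1 and Irgm1, and 22 were not called. Among all genes tested in the IS 14.6% fell and 15.0% rose, so the members' share that fell was not far above the share of all genes. The median log2 fold change was -0.16 over the tested members and 0.00 over all genes tested, and 24 of all 34 members had the lower mean in ArKI.

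Rsad2 had the largest change. It encodes viperin, an enzyme that makes a chain-terminating nucleotide, and lies at chr12:26442743-26456452. Its values in the IS WT samples were 6.83, 6.76, 8.57, 6.78 and 6.04 CPM. In the IS ArKI samples they were 4.22, 3.10, 2.13, 2.37 and 2.23 CPM. The highest ArKI sample was below the lowest WT sample, and Rsad2 fell by 1.30 on the log2 scale (SE 0.20, adjusted p = 4.7e-05, edgeR).

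Cmpk2, a nucleotide kinase gene next to Rsad2 at chr12:26469117-26479837, did not show this difference. It was at 3.77 ± 1.17 CPM in IS WT and 3.87 ± 0.752 CPM in IS ArKI (SD, n = 5, log2 fold change 0.04 ± 0.22 SE, adjusted p = 0.92).

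Ifi44, a gene of poorly known function used as a marker of the response, was at 2.52, 3.32, 3.10, 4.10 and 3.23 CPM in IS WT samples. In IS ArKI samples it was at 2.37, 1.27, 1.56, 1.86 and 1.41 CPM. All ArKI values were below all WT values, although replicate 1 of each group nearly met, and the log2 fold change was -0.93 (SE 0.23, adjusted p = 0.0048). Stat2, the STAT specific to type I and III interferon signalling, was at 73.1, 75.7, 78.4, 72.6 and 79.6 CPM in WT. In ArKI it was at 66.1, 65.8, 54.9, 65.1 and 58.8 CPM. The groups again did not overlap, and the change was small, -0.29 (SE 0.06, adjusted p = 0.00066).

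Usp18, which removes ISG15 from proteins and dampens the receptor, was at 7.31, 6.07, 8.45, 4.95 and 8.02 CPM in WT and at 5.01, 5.50, 4.26, 5.75 and 3.28 CPM in ArKI IS. Irf7 was at 18.9, 23.7, 25.0, 20.1 and 20.5 CPM in WT and at 16.4, 15.8, 19.0, 20.6 and 17.1 CPM in ArKI. Igtp was at 23.4, 32.0, 26.1, 29.0 and 24.2 CPM in WT and at 25.7, 21.98, 19.2, 22.3 and 20.5 CPM in ArKI. The groups overlapped for each of these genes. The log2 fold changes were -0.56 (SE 0.18, adjusted p = 0.027) for Usp18, -0.28 (SE 0.10, adjusted p = 0.037) for Irf7 and -0.29 (SE 0.10, adjusted p = 0.030) for Igtp. None of these 3 calls held with all epididymal samples in 1 fit (adjusted p = 0.088, 0.058 and 0.056 in the same order) or when certain libraries were left out (up to 0.10), and that of Irf7 was also lost with DESeq2 (adjusted p = 0.054) and with library size as the only scaling (0.074).

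The members that rose in the IS were an RNA sensor and a GTPase. Irgm1, an immunity-related GTPase that acts in autophagy, was at 36.0, 42.3, 46.5, 37.6 and 37.0 CPM in WT. In ArKI it was at 49.97, 53.3, 47.8, 51.7 and 45.9 CPM, and 4 of the 5 values were above all WT samples, while that of replicate 5 was above all but 1 (log2 fold change 0.32, SE 0.07, adjusted p = 0.0018). Ifih1, the sensor MDA5, was at 9.47, 10.3, 9.94, 11.2 and 9.80 CPM in WT and at 14.0, 13.2, 14.5, 11.2 and 11.3 CPM in ArKI. The lowest ArKI value and the highest WT value were nearly the same, and the log2 fold change was 0.35 (SE 0.11, adjusted p = 0.023). The call was lost without IS ArKI replicate 1, IS ArKI replicate 3 or IS WT replicate 1 (highest adjusted p = 0.065).

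By role, the transcription factors held 2 genes that fell (Stat2, Irf7) and 3 not called, Irf1, Irf8 and Irf9. Of the sensors, Ddx58 (RIG-I) and Dhx58 were not called. Among the ISG15 and IFIT genes, Usp18 fell, while Isg15 (a ubiquitin-like protein) and the RNA-binding Ifit1, Ifit2 and Ifit3 were not called, with estimates between -0.62 and 0.28. The OAS genes that could be tested, Oas2 and Oasl2, were not called, nor were Mx1, Bst2, Cmpk2, Gbp2, Gbp3, Psmb8, Psmb9, Tap1, Xaf1, Rtp4 and Ifi35. Mx1, a dynamin-like GTPase whose allele in common laboratory strains is defective, had the lowest estimate of those not called, -0.996 (SE 0.46, adjusted p = 0.12), and IS WT replicate 3 alone reached 5.46 CPM. The estimate of Mx1 ran from -1.31 to -0.52 over the alternatives, and none called it. Oas1a, Oas3, Oasl1 and Mx2 did not reach the level needed for testing in the IS, with at most 2.86 CPM in a WT sample. The groups did not overlap for 3 tested members (Stat2, Rsad2, Ifi44), which is 3 of 30 against 20.1% of all genes tested.

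Markers of other cell types moved with genotype in the IS. Of 10 macrophage markers, 4 fell in ArKI (Csf1r, Cx3cr1, C1qa and Adgre1), none rose, and their summed level was 252.6 to 348.7 CPM in WT and 206.5 to 281.1 CPM in ArKI. All 5 endothelial markers fell, with summed levels of 112.1 to 134.9 CPM in WT and 75.2 to 93.1 CPM in ArKI. All 4 smooth muscle markers fell, from 467.4 to 514.5 CPM in WT to 197.4 to 357.8 CPM in ArKI. Of the IS epithelium markers 3 of 4 fell, and of the basal cell markers 2 of 3 fell. Of 6 dendritic cell markers, Itgax fell. Of 12 T and NK cell markers 3 could be tested and none was called, with summed levels of 6.33 to 10.5 CPM over all IS samples. No B cell or neutrophil marker could be tested, and the neutrophil markers Retnlg and Cxcr2 had no counts in any IS sample. Of the remaining lists, Adam7 of the caput list and Sox9 of the Sertoli cell list rose in the IS. Adam7 was about as high in IS WT (15587 CPM) as in caput WT (14450 CPM), and Sox9 was the only gene of its list tested. Neither shows by itself a change of the cell type its list is named for. The 2 Leydig cell markers that could be tested were not called, and no germ cell marker could be tested. The summed germ cell markers were 2.83 to 27.9 CPM in IS WT and 0.141 to 2.11 CPM in IS ArKI, without overlap. The part of these cell types in the members' differences was not tested.

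In the caput, members rose and none fell. Of 32 members tested, Irf7, Irf9, Irgm1, Ifi35 and Ifi44 rose in ArKI mice and 27 were not called. Of all genes tested in the caput 13.7% rose and 14.0% fell, so that 5 of 32 was close to the share of all genes that rose. The median log2 fold change over the tested members was 0.15 with all samples and 0.04 (19 of 32 estimates above 0) without caput ArKI replicate 2. With limma-voom on all samples it was 0.07 (20 of 32 estimates above 0). For all genes tested in the caput the median was 0.00 in edgeR with all samples. The same 5 members were called in edgeR without caput ArKI replicate 2.

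Ifi44 had the largest change in the caput. It was at 1.76, 0.877, 2.23, 1.84 and 1.89 CPM in WT samples. In ArKI samples it was at 2.28, 5.12, 4.65, 2.57 and 3.24 CPM. All ArKI values were above all WT values, the opposite of the IS, although ArKI replicate 1 and WT replicate 3 nearly met, each with 19 counts. Counts were low, at 8 to 19 in WT and 19 to 52 in ArKI. The log2 fold change was 1.03 (SE 0.28, adjusted p = 0.0099), or 0.92 (adjusted p = 0.014) without caput ArKI replicate 2. Irf7 was at 38.7, 35.1, 47.0, 34.5 and 38.4 CPM in WT and at 41.8, 58.3, 50.3, 45.4 and 47.1 CPM in ArKI. The groups overlapped only through caput WT replicate 3, and the log2 fold change was 0.33 (SE 0.10, adjusted p = 0.023), or 0.27 (adjusted p = 0.020) without caput ArKI replicate 2.

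Irf9 was at 110.4, 101.1, 104.4, 90.3 and 121.5 CPM in WT and at 116.5, 131.5, 125.7, 123.1 and 127.3 CPM in ArKI caput. Only caput WT replicate 5 lay above an ArKI sample, and the log2 fold change was 0.26 (SE 0.07, adjusted p = 0.0076), or 0.23 (adjusted p = 0.013) without caput ArKI replicate 2. Ifi35, also named IFP35, was at 29.3, 25.7, 32.0, 30.9 and 28.2 CPM in WT. In ArKI it was at 32.5, 32.0, 35.4, 33.9 and 33.1 CPM. The groups did not overlap, by a small margin, and the log2 fold change was 0.21 (SE 0.07, adjusted p = 0.024), or 0.22 (adjusted p = 0.024) without caput ArKI replicate 2.

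Irgm1 rose in the caput as it did in the IS. It was at 18.6, 22.4, 28.9, 24.2 and 21.6 CPM in WT and at 24.4, 36.9, 35.5, 30.3 and 28.7 CPM in ArKI. The groups overlapped through caput WT replicate 3, and the log2 fold change was 0.43 (SE 0.13, adjusted p = 0.024), or 0.38 (adjusted p = 0.031) without caput ArKI replicate 2. The calls of Irgm1, Irf7 and Ifi35 were lost without caput WT replicate 2 or without caput WT replicate 5 (adjusted p of up to 0.073), that of Irf7 also without caput WT replicate 4, and those of Irgm1 and Ifi35 also without caput ArKI replicate 3.

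The other members tested in the caput were not called. Among the transcription factors, Stat2, Irf1 and Irf8 had estimates of -0.05, 0.01 and -0.02. Among the sensors, Dhx58 had an estimate of 0.55 (SE 0.21, adjusted p = 0.063), Ifih1 of 0.19 and Ddx58 of -0.16. The ISG15 and IFIT genes lay between -0.09 and 0.34, the OAS genes that could be tested (Oas1a, Oas2, Oasl2) between 0.17 and 0.57, and the antiviral effectors Mx1, Mx2, Rsad2, Cmpk2 and Bst2 between -0.35 and 0.34. Gbp2 and Gbp3, guanylate-binding GTPases, had estimates of 0.50 and 0.39, Igtp of -0.16, Psmb8, Psmb9 and Tap1 of 0.05 to 0.07, and Xaf1 and Rtp4 of 0.37 and 0.55. Rtp4, a chaperone of membrane receptors, had 1 sample far above the others, with 15.6 CPM in caput ArKI replicate 2 and 3.86 to 6.26 CPM in the other ArKI samples. Its estimate without that sample was 0.15 (adjusted p = 0.68). The estimates of Usp18 (0.06), Ifit1 (0.04), Ifit2 (0.02), Oas2 (0.17), Bst2 (0.09) and Psmb9 (0.05) changed sign without it, to -0.15, -0.13, -0.20, -0.27, -0.13 and -0.09, none of them called, and those of Isg15 and Oasl2 moved from 0.34 and 0.28 to 0.07 and 0.07. Oas3 and Oasl1 could not be tested. The groups did not overlap for 2 of 32 tested members (Ifi35 and Ifi44), against 19.9% of all genes tested.

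Among the marker lists in the caput, none of the 10 macrophage markers was called, with summed levels of 145 to 192.7 CPM in WT and 169.4 to 269.4 CPM in ArKI. Of the endothelial markers Pecam1 and Kdr rose, and the summed level was 47.5 to 52.4 CPM in WT and 55.3 to 77.0 CPM in ArKI. The dendritic cell marker Clec9a rose (1 of 6), but it reached the level needed for testing (1.10 CPM) in no WT sample and so was tested only because it was high in ArKI. None of the 4 smooth muscle markers was called. T and NK cell markers summed to 6.14 to 9.63 CPM in WT and 7.07 to 13.6 CPM in ArKI, and no neutrophil marker exceeded 3 counts. The germ cell markers Prm1, Tnp1, Tnp2 and Ldhc fell, with summed levels of 47.7 to 69.0 CPM in WT and 2.64 to 10.3 CPM in ArKI. Ros1 of the IS epithelium list, Cyp17a1 of the Leydig cell list and Sox9 of the Sertoli cell list rose, and Lcn5 of the caput epithelium list fell. The list names do not show which cells of the caput held these transcripts. No basal cell, B cell or T and NK cell marker that could be tested was called. The part of these cells in the members' differences was not tested.

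**Figure D2:**
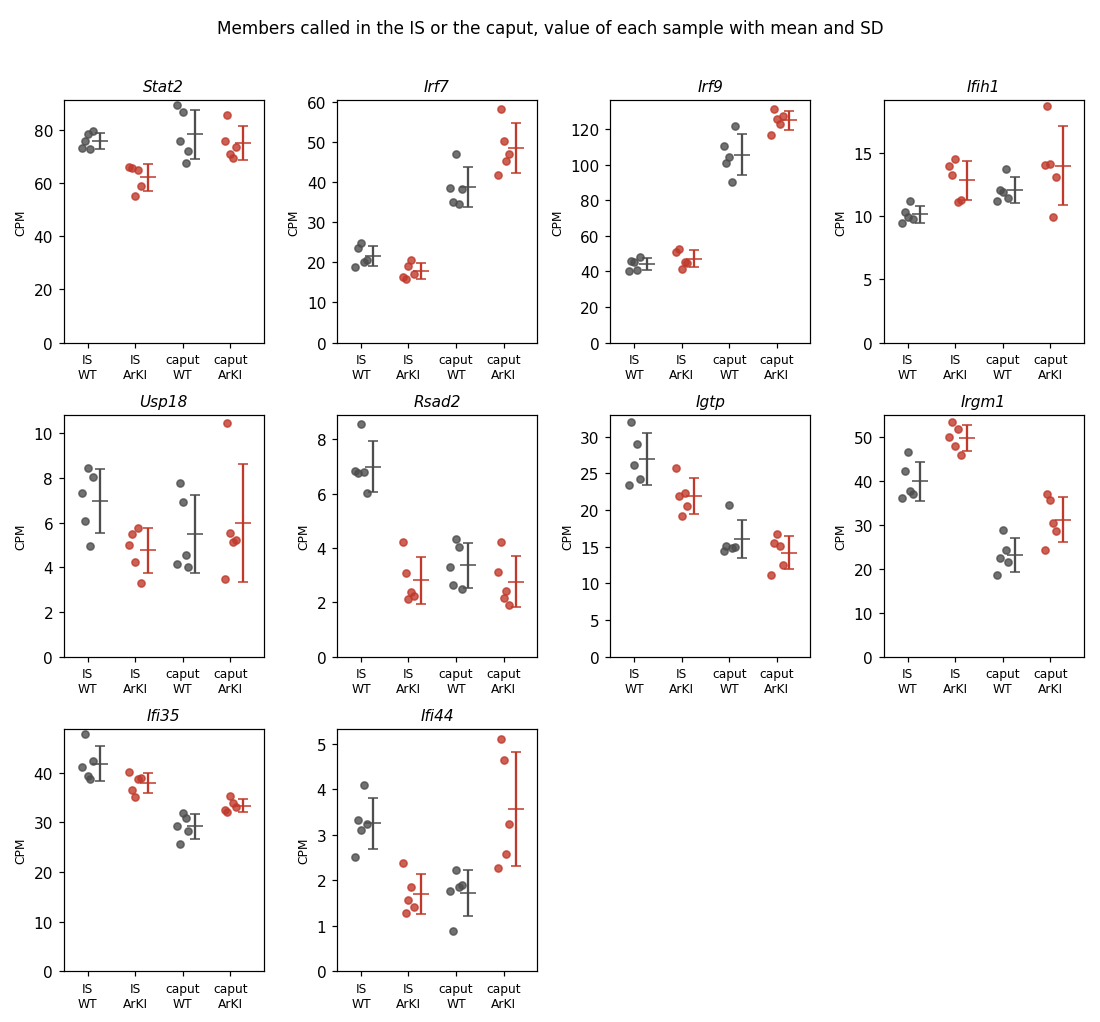
CPM of the 10 members called in the IS or the caput, for the 5 WT (grey) and 5 ArKI (red) samples of each segment, with the mean and SD beside the points. Ifi44 is lower in ArKI in the IS and higher in ArKI in the caput, and Rsad2 is lower in ArKI in the IS.

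Whether genotype acted differently in the segments was tested with an interaction term over the 20 epididymal samples. Of 33 members tested, 5 were called, and in each the ArKI effect in the IS was below that in the caput. Over all genes tested 7.38% were called in this direction and 7.77% in the opposite one. The interaction estimate was below 0 for 26 of the 33 members, and the median was -0.32, or -0.19 (25 of 33 below 0) without caput ArKI replicate 2. For all genes the median interaction estimate was 0.00, with 50.4% of estimates above 0. Ifi44 had the largest called difference of effects, -1.96 (SE 0.37, adjusted p = 0.00052, edgeR), and it was called in opposite directions in the IS and the caput. Irf7 was also called in opposite directions (-0.61, SE 0.15, adjusted p = 0.0046), although its call in the IS was lost with all epididymal samples in 1 fit (adjusted p = 0.058). Ifi35 was called in the caput only, and its effects differed by -0.35 (SE 0.09, adjusted p = 0.011). Dhx58 was called in neither segment by itself in the main fits. It was called in the caput in 5 of 18 alternatives, all epididymal samples in 1 fit among them. Its effects differed between the segments by -0.87 (SE 0.28, adjusted p = 0.038).

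Dhx58 showed this in its samples. It was at 3.72, 5.61, 6.46, 6.64 and 4.90 CPM in IS WT and at 4.35, 5.35, 3.55, 4.39 and 4.10 CPM in IS ArKI. In the caput it was at 3.72, 3.95, 4.47, 2.82 and 2.24 CPM in WT and at 3.60, 6.23, 6.17, 5.32 and 4.07 CPM in ArKI. The groups overlapped in both segments. Rsad2 differed by -0.94 (SE 0.32, adjusted p = 0.043), with a caput estimate of -0.35 (SE 0.24, adjusted p = 0.32), so that both estimates had the same sign. The calls of Dhx58 and Rsad2 were lost without caput ArKI replicate 2 (adjusted p = 0.058 and 0.079), and 3 calls were left. Each of these 2 calls was lost in 13 of 27 alternatives, with adjusted p of up to 0.079 and 0.086. The remaining calls, Irf7, Ifi35 and Ifi44, were kept without it.

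Irgm1, called in both segments, had effects that differed by -0.11 (SE 0.15, adjusted p = 0.70). A difference was not detected.

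**Figure D3:**
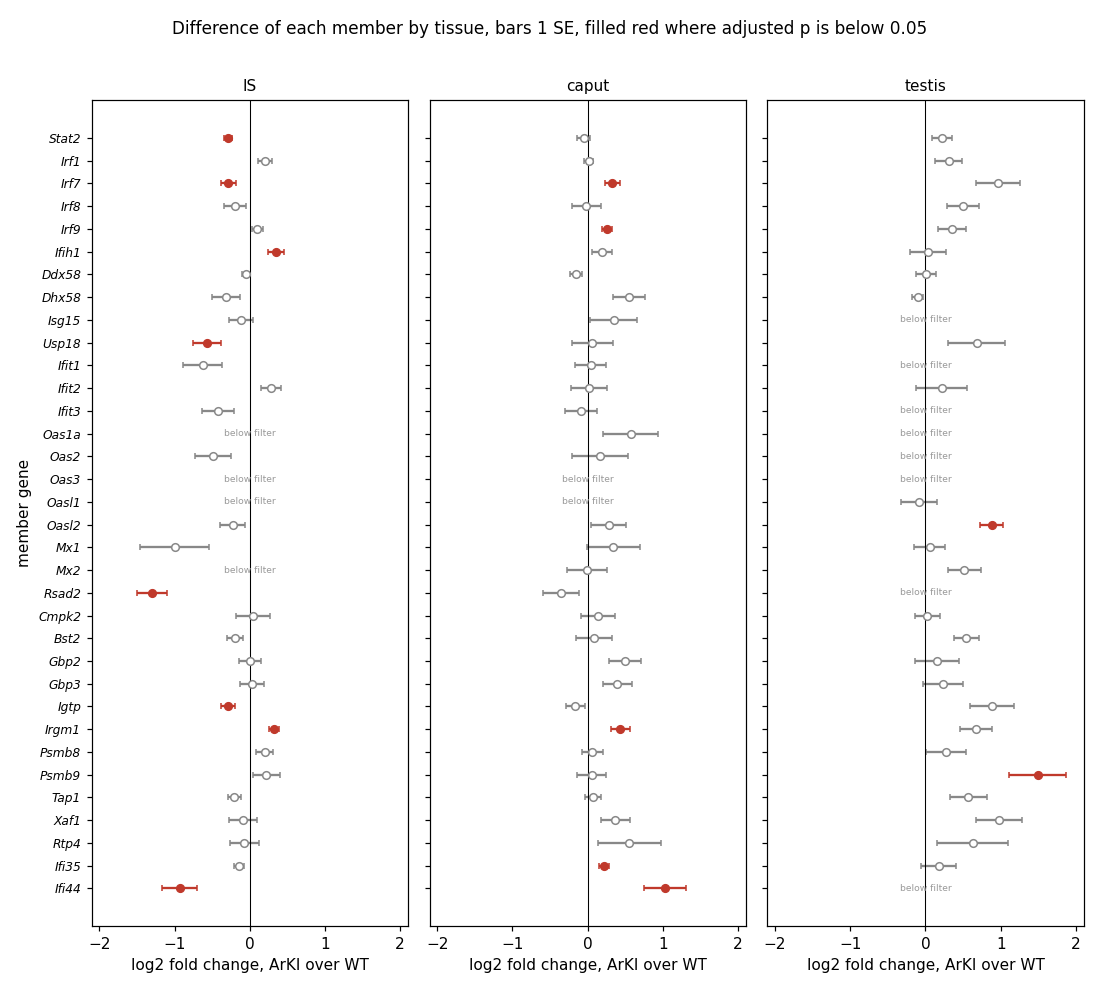
Log2 fold change of ArKI over WT for each of the 34 members in the IS, the caput and the testis, with bars of 1 SE and filled red points where the adjusted p was below 0.05. There are 8 filled points in the IS (6 below 0), 5 in the caput and 2 in the testis, all above 0, and most testis points lie above 0.

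In the testis, the levels were low and most members were somewhat higher in ArKI mice. Of 26 members tested, Oasl2 and Psmb9 rose, none fell and 24 were not called, while 1.64% of all genes tested rose and 0.328% fell. Psmb9 was the only tested member that reached the level needed for testing in 1 genotype alone, the one where it was high, so its call cannot be read against these shares. The mean was higher in ArKI for 31 of all 34 members, whether or not they could be tested, and the median log2 fold change over those tested was 0.33, against 0.00 over all genes tested, of which 49.3% had an estimate above 0. Over the alternatives the members' median ran from 0.255 to 0.542. The lowest was with at least 10 counts in every sample (20 members tested) and the highest without testis WT replicate 1 (29 members tested). The mean of log2(CPM + 0.5) over the 34 members lay between 0.971 and 1.08 in the WT samples and between 1.34 and 1.38 in the ArKI samples. These ranges did not overlap.

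Oasl2, an oligoadenylate synthetase-like protein that binds RNA and carries ubiquitin-like domains, was at 3.72, 4.88 and 3.77 CPM in testis WT. In testis ArKI it was at 7.21, 8.24 and 7.16 CPM, and the log2 fold change was 0.88 (SE 0.15, adjusted p = 0.0011). Psmb9, the immunoproteasome subunit also named LMP2, lies on chromosome 17 at 34182030-34187330, beside Tap1 at 34187556-34197225. It was at 0.180, 0.502 and 0.569 CPM in WT and at 0.940, 1.32 and 1.15 CPM in ArKI (log2 fold change 1.49, SE 0.38, adjusted p = 0.044). Both genes were separated between the groups. All 3 WT values of Psmb9 (3, 7 and 8 counts) were below the level needed for testing (0.620 CPM) and all 3 ArKI values (15, 28 and 20 counts) above it, so that it was tested only because it was high in ArKI, which favours a rise. The call of Psmb9 was lost in 8 of 12 alternatives, with DESeq2 (adjusted p = 0.21), with the replicate block (0.065) and without any 1 of the 6 libraries (up to 0.23). That of Oasl2 was lost only at the study's threshold, which asks for a fold change above 2.

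The groups of 9 of the 26 tested members did not overlap, always with ArKI higher, against 17.8% of all genes tested. Beside Oasl2 and Psmb9 these were Irf7, Mx2, Bst2, Igtp, Irgm1, Tap1 and Xaf1, none of which was called. Psmb9 was tested only because it was high in ArKI, so its separation was fixed by the filter. It cannot be read against the 17.8%. Irf7 was at 0.660, 1.08 and 0.995 CPM in WT and at 1.38, 2.21 and 1.62 CPM in ArKI (log2 fold change 0.97, SE 0.29, adjusted p = 0.10). Igtp had an estimate of 0.89 (SE 0.29, adjusted p = 0.15), Xaf1 (a pro-apoptotic factor) of 0.98 (SE 0.30, adjusted p = 0.12), Irgm1 of 0.67 (SE 0.22, adjusted p = 0.14) and Bst2 of 0.54 (SE 0.17, adjusted p = 0.11). Tap1 had 0.57 (SE 0.25, adjusted p = 0.32) and Mx2, a dynamin-like GTPase, 0.52 (SE 0.22, adjusted p = 0.30).

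Of the other members in the testis, Stat2, Irf1, Irf8 and Irf9 had estimates between 0.22 and 0.50. Ifih1 and Ddx58 were at 0.03 and 0.01, and Dhx58, at 61.1 ± 2.51 CPM in WT and 56.8 ± 4.64 CPM in ArKI (SD, n = 3), was at -0.11 (SE 0.07, adjusted p = 0.58). The estimates of Usp18, Ifit2, Mx1, Cmpk2, Gbp2, Gbp3, Psmb8, Rtp4 and Ifi35 lay between 0.02 and 0.68, and that of Oasl1 was -0.08. Isg15, Ifit1, Ifit3, Oas1a, Oas2, Oas3, Rsad2 and Ifi44 could not be tested. Rsad2 was at 0.30, 0.144 and 0.284 CPM in WT and at 0.439, 0.941 and 0.692 CPM in ArKI testis, without overlap and with WT values close to the level of 3 counts.

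Among the markers in the testis, C1qb rose (1 of 9 macrophage markers tested), and the summed macrophage markers were 95.0 to 98.5 CPM in WT and 105.4 to 111.7 CPM in ArKI. Acta2 rose (1 of 4 smooth muscle markers), and so did Cyp17a1 (1 of 4 Leydig cell markers), the enzyme of androgen synthesis, with summed Leydig cell markers of 419 to 591.9 CPM in WT and 643.3 to 688.2 CPM in ArKI. Gpx5, a caput marker, fell, and the summed caput markers were 55.8 to 61.2 CPM in WT and 35.6 to 44.1 CPM in ArKI. None of the 6 T and NK cell markers tested, the 5 germ cell markers or the 3 Sertoli cell markers was called, nor were the 3 B cell, 2 dendritic cell, 5 endothelial, 1 basal cell and 4 IS epithelium markers that could be tested. The part of these cells in the members' differences was not tested.

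**Figure D4:**
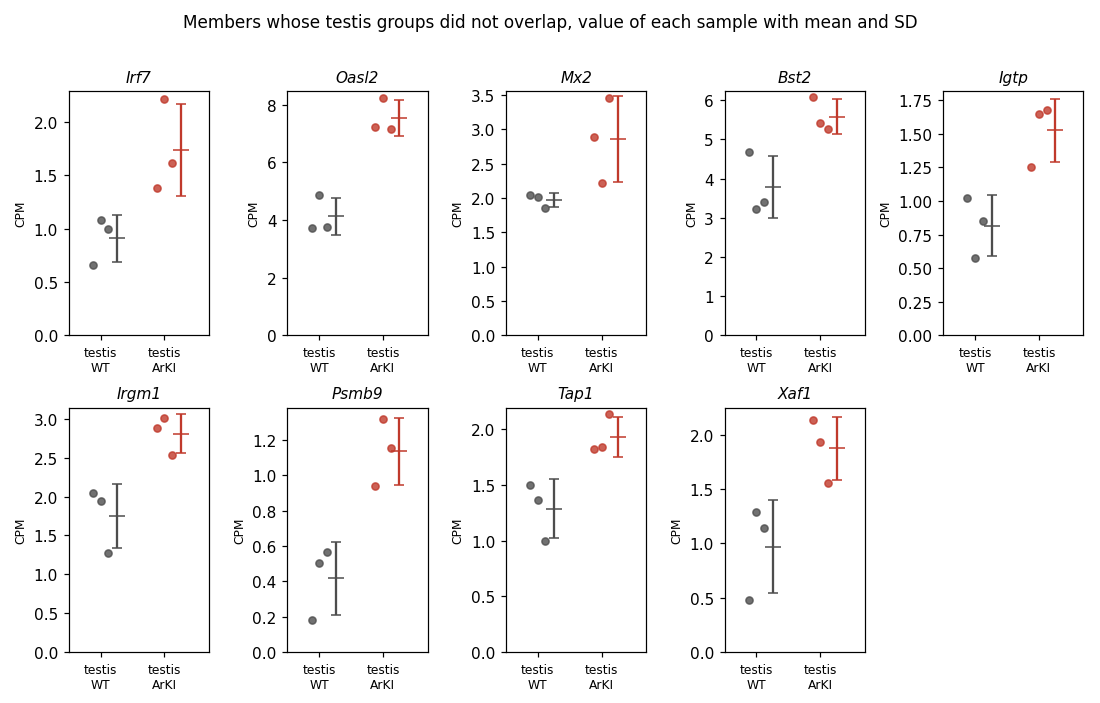
CPM of the 9 tested members whose 3 WT (grey) and 3 ArKI (red) testis samples did not overlap, with the mean and SD beside the points. ArKI is higher in every panel, and only Oasl2 and Psmb9 had an adjusted p below 0.05.

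**Figure D5:**
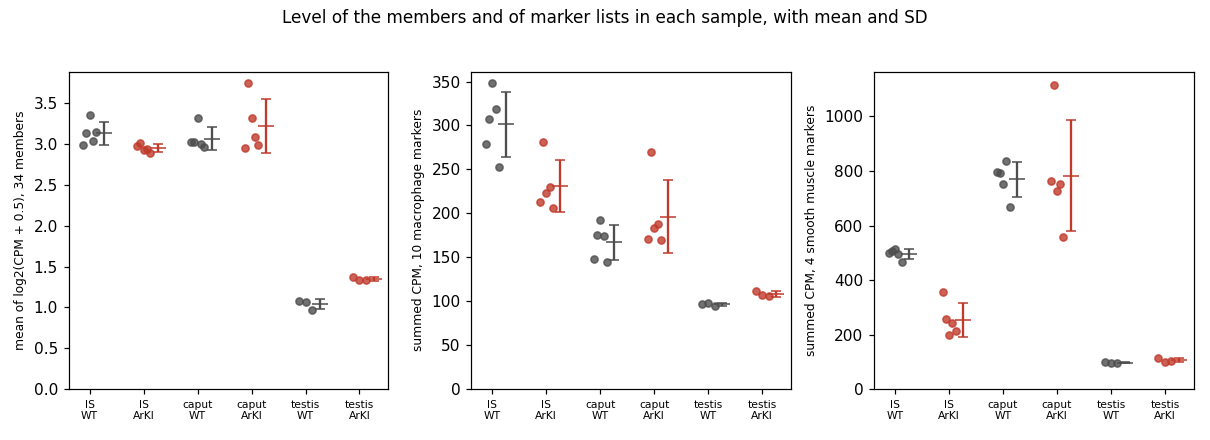
Mean of log2(CPM + 0.5) over the 34 members, summed CPM of 10 macrophage markers and summed CPM of 4 smooth muscle markers in each of the 26 samples by group, with mean and SD. The testis lies lowest in all panels, caput ArKI replicate 2 is the highest point of its group in each, and both marker lists are lower in ArKI than in WT in the IS.

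The upstream genes of the pathway came next, from lists of ligands, receptors, kinases and sensors. None of 9 interferon genes (Ifna1, Ifna2, Ifna4, Ifnb1, Ifne, Ifnk, Ifng, Ifnl2, Ifnl3) reached the level needed for testing in any tissue, and in the IS and the caput all 9 had no counts. All 6 receptor genes were tested in each tissue. Ifngr1, the ligand-binding chain of the interferon gamma receptor, fell in the IS from 105.5 ± 4.86 to 87.3 ± 8.66 CPM (log2 fold change -0.27, SE 0.06, adjusted p = 0.0019). Ifnar1, Ifnar2, Ifngr2, Ifnlr1 and Il10rb were called in no tissue, and their largest estimate was 0.42 for Ifnar2 in the testis (adjusted p = 0.12).

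Among the kinases and STAT genes, Jak1 (-0.18) and Stat3 (-0.21) fell and Jak2 (0.18) rose in the IS, while Stat3 (-0.23) fell and Jak2 (0.21) rose in the caput, each given as a log2 fold change. Tyk2 was called in no tissue. None of the genes of this list was called in the testis. Of 12 sensors and adaptors, Tlr3 (0.42) and Sting1 (0.32) rose and Myd88 (-0.25) fell in the IS. In the caput Sting1 (0.48) rose, and Myd88 (-0.31) and Tbk1 (-0.16) fell. None of the 11 that could be tested in the testis was called. Of the other IRF factors, Irf3 rose in the IS (0.20) and Irf5 in the caput (0.71).

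A list of 6 genes drawn up as negative regulators held Pias1, a SUMO ligase that inhibits STAT proteins, which rose in the IS (0.34) and in the caput (0.47), and Socs3, an inhibitor of JAK kinases, which rose in the caput (1.05). It also held Isg20, an exonuclease that degrades viral RNA and does not act as the list's name says. Isg20 fell in the IS from 8.91 ± 1.97 to 4.84 ± 1.40 CPM (log2 fold change -0.87, SE 0.19, adjusted p = 0.0018) and in the caput from 264.5 ± 57.1 to 107.8 ± 25.7 CPM (-1.28, SE 0.21, adjusted p = 0.0020). None of the 6 was called in the testis.

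Other interferon response genes, 40 in the counts, were called in both directions. In the IS 4 of 34 tested rose and 5 fell, near the shares of all genes (15.0% and 14.6%). Those that rose included Ifi205 (1.79), which reached the level needed for testing in no WT sample, and Ifitm2 (0.34), on the log2 scale. Gbp9 (-0.66), Gbp4 (-0.57), Irgm2 (-0.35), Parp12 (-0.32) and Ifitm1 (-1.08) fell. In the caput 10 of 36 tested rose and 2 fell, against 13.7% and 14.0% of all genes. Ifi205 (2.29), Ifi47 (0.94), Pml (0.28), Parp14 (0.49), Dtx3l (0.43) and Oas1c (0.57) rose, and Ifitm1 fell (-1.30). In the testis Lgals3bp (0.51) and Ifi203 (1.09) rose out of 31 tested and none fell, against 1.64% and 0.328% of all genes.

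The class I antigen presentation list held 11 genes, all tested in each tissue. B2m, the light chain of class I molecules, rose in each tissue, from 839 ± 52.4 to 1168 ± 232 CPM in the IS (0.48, adjusted p = 0.015), from 1124 ± 82.4 to 1469 ± 163 CPM in the caput (0.40, adjusted p = 0.00042) and from 28.9 ± 2.59 to 55.3 ± 8.07 CPM in the testis (0.93, adjusted p = 3.6e-06). The heavy chain genes H2-K1 and H2-D1 rose in the testis (0.30 and 0.42) and fell in the caput (-0.30 and -0.34). Nlrc5, the activator of class I genes, rose in the IS (0.77) and the caput (0.70), Psme1, a proteasome activator, rose in the IS (0.42), Psmb10, the remaining immunoproteasome subunit, rose in the caput (0.39), and Calr fell there (-0.29). The class I heavy chain, OAS, GBP, IFIT and Mx genes each belong to a family of related genes, and only uniquely aligned reads were counted. Whether this lowered the counts of any of them was not tested. Whether the effects in the testis differ from those in the epididymis was not tested, since the tissues were in different batches.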

How the data were processed

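The authors aligned 50-base single-end reads with STAR to mm10 and counted uniquely mapped reads per RefSeq gene with Subread 1.5.1. The deposited values are raw counts, in 1 table for the IS and caput and 1 for the testis. The labels and the methods name different library kits, and whether counting used strand is not given in the sources used here.

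Each tissue was fitted by itself in edgeR 4.0.16 (R 4.3.3) with TMM scaling, filterByExpr (minimum count 10, minimum total 15) and robust quasi-likelihood tests, and p-values were adjusted by the Benjamini-Hochberg method over all genes tested. The SE is the absolute log2 fold change divided by the square root of F. The study's own test (ROTS on voom values) was not run, and its thresholds were an alternative, as were DESeq2 1.42.0 and limma 3.58.1 voom. The steps were tested on simulated counts. The members, gene lists and tests were chosen with earlier results of these data known. Members called in a comparison were named with all values, at most 10 per tissue. At most 8 called genes per pathway list were named, by adjusted p. Per the methods, the IS and caput came from 5 mice per genotype and the testis from 3, so an IS and a caput sample may share a mouse. The labels do not say which, and the segment and interaction tests treated the samples as independent. No pair of samples was alike within counting noise. Gene places and promoters are from RefSeq (GRCm38.p6), and exon lengths from GENCODE M21. Symbols were matched through RefSeq synonyms where needed. Some items of the series are not reported here.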

Additional observations from a re-analysis of the deposited data

Results flagged for a closer look

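Of 124 sets of 5 samples (members tested in the IS or the caput, by genotype), 9 held a sample far from the others by Dixon's criterion, where chance gives about 1 in 20, or 6.2. The sample was caput ArKI replicate 2 in 4 of them: Ifit2 (10.5 CPM), Oas2 (10.5 CPM), Bst2 (32.0 CPM) and Rtp4 (15.6 CPM). Caput WT replicate 3 was high for Igtp (20.7 CPM) and Rtp4 (7.28 CPM). IS WT replicate 3 was high for Mx1 (5.46 CPM), IS WT replicate 4 was low for Oas2 (1.98 CPM) and IS WT replicate 5 was low for Psmb9 (3.54 CPM).

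The effect of genotype differed between the IS and the caput, by the interaction test in edgeR, for Ifi44 (-1.96), Rsad2 (-0.94), Dhx58 (-0.87), Irf7 (-0.61) and Ifi35 (-0.35), on the log2 scale and as the IS effect minus the caput effect. The calls of Rsad2 and Dhx58 were each lost in 13 of 27 alternatives.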

How the results depend on the processing

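No called member changed sign under any alternative run in the 5 comparisons. The count of called members was 8 in the IS, 5 in the caput, 2 in the testis, 5 for the interaction and 16 between WT segments. With all epididymal groups in 1 fit 5 members were called in the IS. With the threshold at 0.01 the counts were 4 in the IS, 2 in the caput, 1 in the testis and 2 for the interaction. At the study's thresholds 1 was called in each tissue, Rsad2 in the IS, Ifi44 in the caput and Psmb9 in the testis. In the testis 1 was called by DESeq2 and 1 with at least 10 counts in every sample. Leaving out a library gave 5 to 8 in the IS (5 without IS ArKI replicate 5), 2 to 7 in the caput (2 without caput WT replicate 2 or 5), 1 to 3 in the testis (1 without any library but testis WT replicate 1), 3 to 5 for the interaction and 14 to 17 between WT segments. The interaction had 3 calls without IS ArKI replicate 3, 4 or 5, IS WT replicate 2, 3 or 4, caput WT replicate 5, or caput ArKI replicate 2 or 4. In the caput Ddx58 fell without caput ArKI replicate 3. Other settings, TMM against RLE or library size among them, left the counts within 1.5 times. Of the members tested and not called, 3 of 22 in the IS, 3 of 27 in the caput, 3 of 24 in the testis, 0 of 28 for the interaction and 5 of 17 between WT segments were called under some alternative. In the same order, 4, 12, 7, 3 and 10 of these uncalled members changed sign under some alternative.

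The samples of groups share replicate numbers, but no source says that a number marks a mouse, and in no pairing were the deviations of every same-numbered pair correlated above 0.1 (range -0.18 to 0.20). Between IS and caput, 3 of 5 WT pairs (replicates 3, 4 and 5, at 0.18, 0.11 and 0.17) and 1 of 5 ArKI pairs were above 0.1, and 3 WT and 2 ArKI pairs correlated best with their own number. With the replicate block 9 members were called in the IS, 6 in the caput, 1 in the testis, 5 for the interaction and 17 between WT segments. At 0 to a few counts per sample, as for the interferon genes or Oas3, differences were not detectable at this depth.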
